A study of Mus musculus with 9 samples.

Results

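Ddx4, Gtsf1, Tdrd1 and Tdrd9 are 4 genes of the piRNA pathway of germ cells. They were described here from all 9 arrays of a study of juvenile Spo11-/- testes, taking the probes whose only annotated gene was one of these 4. Each gene had 1 probe, so 4 of the 9604 probes with a single gene and 4 of the 7117 genes were used. The 4 genes had been picked because their 15-day values lay below 0 on every array, so those values are given as a description without a test. Whole-testis total RNA of Spo11-/- mice and of wild-type mice was hybridised together on 2-colour cDNA arrays, a knockout and a wild-type sample to an array. There were 4 arrays of mice aged 15 days and 5 of mice aged 12 days. Knockout RNA carried Cy3 on all 4 arrays of 15 days. At 12 days it carried Cy5 on replicates 1, 4 and 5 and Cy3 on replicates 2 and 3. The series' design text speaks of 4 hybridisations with separate mouse pairs of a litter, while 5 arrays were labelled as 12 days. The labels name neither the strain nor the structure of the Spo11 allele, and the arrays held 0 probes annotated to Spo11, so the genotype labels could not be checked by it.

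piRNAs are small RNAs that guide PIWI proteins to transposon transcripts and to transposon DNA in germ cells. Their precursors are cut and trimmed in granules beside mitochondria, where helicases and Tudor domain proteins assemble, and in the mouse a large class of piRNAs is made by spermatocytes in the pachytene stage of meiosis. SPO11 makes the DNA breaks that start meiotic recombination, and mouse spermatocytes without it stop in meiotic prophase. Ddx4 encodes the mouse VASA homologue, a DEAD-box RNA helicase of germ granules. Tdrd1 encodes a protein with several Tudor domains, which bind methylated arginines of PIWI proteins, Tdrd9 a helicase with a Tudor domain that is needed for transposon silencing in the mouse male germ line, and Gtsf1 a small zinc finger protein that works with PIWI proteins.

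The promoters of the 4 genes are shown because the 4 genes were low together at 15 days. All 4 were found in the RefSeq promoter table of build GRCm38.p6. Printed are the 250 bases before the annotated start, 5′ to 3′ on the strand of the gene, with the motif CACGTG, an E-box and its own reverse complement, in capitals.
Ddx4 promoter, chr13:112652311-112652560, minus strand: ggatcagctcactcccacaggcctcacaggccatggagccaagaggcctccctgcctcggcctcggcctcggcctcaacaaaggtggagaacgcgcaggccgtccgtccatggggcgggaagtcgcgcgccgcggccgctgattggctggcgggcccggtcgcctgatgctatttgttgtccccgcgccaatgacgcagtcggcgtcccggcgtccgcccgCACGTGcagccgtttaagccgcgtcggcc
Gtsf1 promoter, chr15:103430428-103430677, minus strand: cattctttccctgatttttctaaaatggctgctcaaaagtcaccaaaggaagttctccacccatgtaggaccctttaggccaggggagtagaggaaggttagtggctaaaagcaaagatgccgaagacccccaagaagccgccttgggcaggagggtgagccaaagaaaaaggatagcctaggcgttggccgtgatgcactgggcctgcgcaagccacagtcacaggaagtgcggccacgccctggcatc
Tdrd1 promoter, chr19:56825959-56826208, plus strand: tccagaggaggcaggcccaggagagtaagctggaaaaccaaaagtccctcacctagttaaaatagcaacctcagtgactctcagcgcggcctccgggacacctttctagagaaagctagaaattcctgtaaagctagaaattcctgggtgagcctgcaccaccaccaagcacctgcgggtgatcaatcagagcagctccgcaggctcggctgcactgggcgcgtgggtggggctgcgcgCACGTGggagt
Tdrd9 promoter, chr12:111971309-111971558, plus strand: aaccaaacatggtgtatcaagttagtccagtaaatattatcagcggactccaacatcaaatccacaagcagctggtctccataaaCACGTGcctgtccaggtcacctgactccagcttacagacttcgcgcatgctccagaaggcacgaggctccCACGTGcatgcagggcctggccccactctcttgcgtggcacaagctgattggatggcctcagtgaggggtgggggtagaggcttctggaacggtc
CACGTG occurred in 3 of the 4 windows, against 6.02% of 32851 promoter windows of that length in the table. Its first base lay 29 bases before the start of Ddx4, 11 before that of Tdrd1, and 165 and 95 before that of Tdrd9. The Gtsf1 window did not hold these letters. The table gives 3 starts for Tdrd1, of which the first listed is shown. The Tdrd1 window at 56826025-56826274 also held the motif, and that at 56830462-56830711 did not. The 32851 windows count every listed start of a gene, while each of the 4 genes is counted by 1 start. Among 27 other piRNA pathway genes in the table, 5 held the motif, namely Mael, Piwil1, Fkbp6, Stk31 and Mov10l1. The CCAAT box, searched as CCAAT on both strands, was in the windows of Ddx4 and Tdrd9 and in 33.8% of all windows. The letters GCGGGAA, of the E2F type, were in that of Ddx4 and in 3.82% of all windows, and the MYB core AACNG was in those of Ddx4 and Tdrd9 and in 74.2% of all, each on both strands. The motifs were chosen after the sequences had been read, and a match is a description of the letters and not a binding site. GC content was 70.4% for Ddx4 and 54.4% to 57.6% for the others, against a median of 52.4% over all windows.

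The values are log ratios of the 2 channels of an array, read as log2, and each array has a median of 0. They carry no level of a transcript, so the genes can be compared in their change and not in their abundance. Values were present for 86.9% to 91.3% of 16128 probes on the 15-day arrays, and for 72.1% to 90.1% on the 12-day arrays. Which channel stands on top of a ratio remains unknown. With Cy5 over Cy3, and any dye effect aside, a value below 0 at 15 days is a transcript higher in the knockout. With the knockout on top, it is a transcript lower in the knockout. Arrays of both ages that had knockout RNA in the same dye correlated at r = -0.38 to -0.11 across probes (8 pairs, probes not being independent), although their labels give them 1 orientation. Values at 15 days are therefore printed as deposited, and turning the sign turns all of them.

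All 4 genes were low on all 4 arrays of 15 days, and Ddx4 was the lowest of them on each array. Ddx4 had values of -1.05, -1.48, -1.11 and -1.02 on replicates 1 to 4. Their mean was -1.17 ± 0.21 (SD, n = 4), a 2.24-fold difference between the channels. Since knockout RNA carried Cy3 on all 4 arrays, a dye effect and a genotype effect cannot be told apart in the 15-day values. On each array Ddx4 stood among the lowest 1% of features, between the percentiles 0.154 and 0.623. Gtsf1 followed at -0.75, -1.07, -0.76 and -0.80, with a mean of -0.845 ± 0.15 (SD, n = 4, 1.80-fold). Its replicate 2 lay apart from the 3 others, which were within a narrow range. Both genes had a smaller SD between arrays than Tdrd1 and Tdrd9.

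The Tudor genes varied more. Tdrd9 had -0.85, -1.23, -0.54 and -0.52 on replicates 1 to 4, a mean of -0.785 ± 0.33 (SD, n = 4, 1.72-fold). Tdrd1 had -0.57, -1.11, -0.59 and -0.37, a mean of -0.66 ± 0.32 (SD, n = 4, 1.58-fold). Replicate 2 held the lowest value of each of the 4 genes, and their mean on it was -1.22, against -0.68 to -0.81 on the other 3 arrays of 15 days. Replicate 2 did not have the widest distribution over all probes, with an SD of 0.41 against 0.47 on replicate 3. Tdrd9 stood at percentile 7.48 of replicate 3 and Tdrd1 at 5.6 of it, the least extreme ranks of both genes.

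For scale, 655 of 12198 features (5.37%) passed below 0 at 15 days by limma at an adjusted p under 0.05, and 860 (7.05%) passed above it. All 4 values of 15 days were below 0 for 19.2% of features with 4 values. As the 4 genes were picked on this contrast, nothing is read from these shares about them. The median of the 100 spots on each side of a gene's spot averaged -0.08 for Ddx4, -0.04 for Gtsf1, -0.01 for Tdrd1 and -0.01 for Tdrd9 over the 15-day arrays. On replicate 2, where both Tudor genes were lowest, it was -0.13 around Tdrd1 and -0.12 around Tdrd9. It lay between -0.035 and 0.06 around them on the other 15-day arrays. Neighbouring spots over a whole array correlated at r = 0.23 to 0.48 on the 15-day arrays. The spots of Tdrd1 and Tdrd9 were 4 places apart in probe order, and the part of local effects on the slide in their likeness was not tested.

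**Figure D1:**
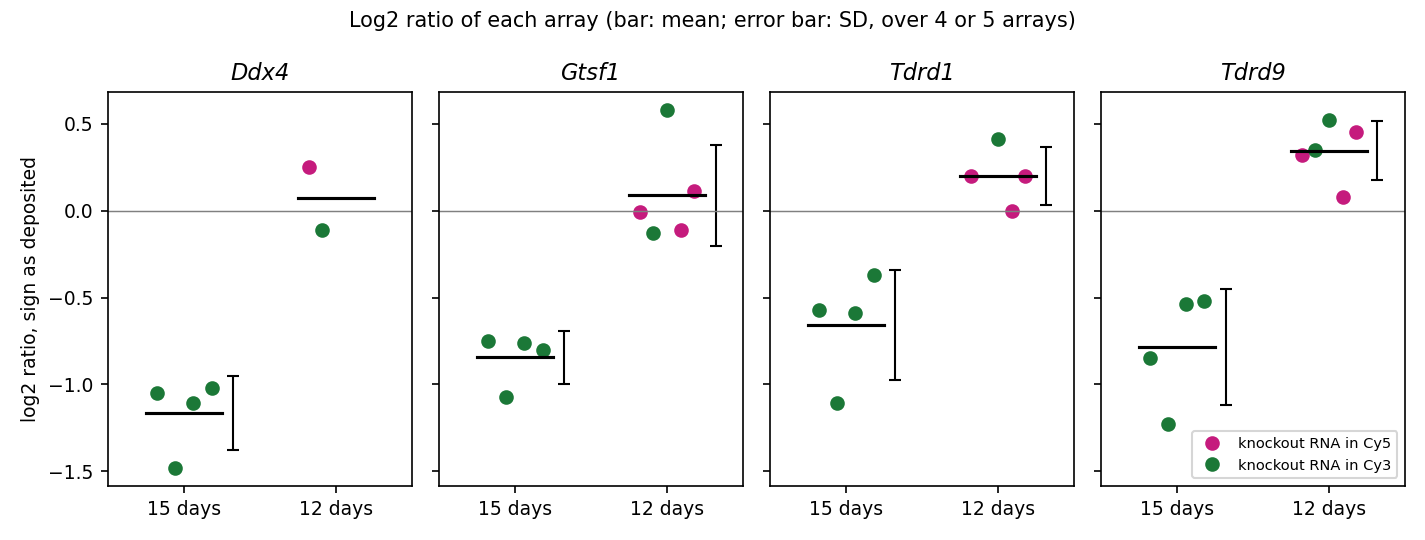
Log2 ratio, with its sign as deposited, of Ddx4, Gtsf1, Tdrd1 and Tdrd9 on each array at 15 and at 12 days, coloured by the dye of the knockout RNA; horizontal bars are means and error bars the SD over arrays, with none for Ddx4 at 12 days, which has 2 values. All 15-day values lie between -1.48 and -0.37, and all 12-day values between -0.13 and 0.58.

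At 12 days, on arrays that had no part in picking the genes, Gtsf1, Tdrd1 and Tdrd9 showed no knockout effect past the test. These arrays agreed little with each other across probes. Pairs with the same dye orientation correlated at r = -0.13 to 0.45 (4 pairs), and pairs with opposite orientations at 0.004 to 0.29 (6 pairs). The 15-day arrays, all of 1 orientation, correlated at 0.38 to 0.60 (6 pairs). The lack of a call at 12 days therefore does not show that an effect was absent. Tdrd9 had 0.32, 0.08 and 0.455 on the arrays with knockout RNA in Cy5 (replicates 1, 4 and 5), and 0.35 and 0.52 on those with it in Cy3 (replicates 2 and 3). Its 5 values thus all lay above 0, in both dye orientations, but that of replicate 5 was close to its surroundings. On replicate 5 the median of the 100 spots on each side was 0.366 for Tdrd9 and 0.367 for Tdrd1, above the value of Tdrd1 itself, and neighbouring spots over the whole array correlated at r = 0.65, against 0.11 to 0.20 on the other arrays of 12 days. On those arrays the medians around both genes lay between -0.005 and 0.06. Tdrd1 had 0.20, 0.00 and 0.197 with knockout in Cy5 and 0.41 on replicate 3 with knockout in Cy3, and no value on replicate 2, so its only value in that orientation is that of replicate 3. Gtsf1 had -0.01, -0.11 and 0.112 with knockout in Cy5, and -0.13 and 0.58 with knockout in Cy3. For Gtsf1 the 5 arrays therefore lay on both sides of 0, and replicate 3 stood apart above them.

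Read as Cy5 over Cy3, with a dye term, the knockout over wild-type ratio at 12 days was -0.11 for Gtsf1 (SE 0.12, 95% interval -0.40 to 0.18), -0.14 for Tdrd1 (SE 0.11, -0.42 to 0.14) and -0.075 for Tdrd9 (SE 0.092, -0.30 to 0.15). Each had a limma adjusted p = 1.0, and unadjusted p was 0.38, 0.26 and 0.45. All 3 intervals held 0, and each gives the effect sizes compatible with the values of that gene. They rest on 5 arrays for Gtsf1 and Tdrd9 and on 4 for Tdrd1. Over all 10075 features limma called 0 (0%), with 269 at an unadjusted p under 0.05, and robust limma also called 0. Left as deposited and not turned by the dyes, the mean of Tdrd9 was 0.345 ± 0.17 (SD, n = 5), that of Tdrd1 0.20 ± 0.17 (SD, n = 4) and that of Gtsf1 0.088 ± 0.29 (SD, n = 5). On that reading Tdrd9 had a limma adjusted p = 0.39. Unadjusted limma p was 0.0046 for Tdrd9, 0.083 for Tdrd1 and 0.47 for Gtsf1. Again 0 of 10075 features (0%) passed, with 910 at an unadjusted p under 0.05. All 5 values were above 0, as for Tdrd9, in 6.38% of the features with 5 values.

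Ddx4 could not be tested at 12 days. It had 0.25 on replicate 1, with knockout RNA in Cy5, and -0.11 on replicate 2, with knockout RNA in Cy3, and no value on replicates 3 to 5. Those 2 values give a knockout over wild-type ratio of 0.18 under the Cy5 over Cy3 reading, with no spread left to test it. The gap was local: 148 of the 200 spots around that of Ddx4 also had no value on these 3 arrays, against 24 to 26 of 200 around the other genes and 8.31% of all spots.

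Set side by side as deposited, the 15-day values of each gene lay below all of its 12-day values. The highest value at 15 days was -1.02 for Ddx4, -0.75 for Gtsf1, -0.37 for Tdrd1 and -0.52 for Tdrd9, against lowest values at 12 days of -0.11, -0.13, 0.00 and 0.08. This order of the ages held in 8.05% of 9851 features with at least 4 values at 12 days, and the opposite order in 6.77%. Ddx4, with 2 values at 12 days, is not among these features, so the shares give no scale for it. Since the genes were picked for low 15-day values, the gap is a description. In the model of all arrays with a dye term, which sets the 4 arrays of 15 days against replicates 2 and 3 of 12 days (for Tdrd1, replicate 3 alone), the 15-day minus 12-day difference in knockout over wild-type ratio was 1.07 for Gtsf1, 1.07 for Tdrd1 and 1.22 for Tdrd9 under the Cy5 over Cy3 reading. With the sign of the 15-day arrays turned it was -0.62, -0.25 and -0.35. The direction of the age difference thus depends on the reading. Over all features limma called 246 of 9851 (2.50%) in the first case and 0 (0%) in the second, with 642 at an unadjusted p under 0.05.

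**Figure D2:**
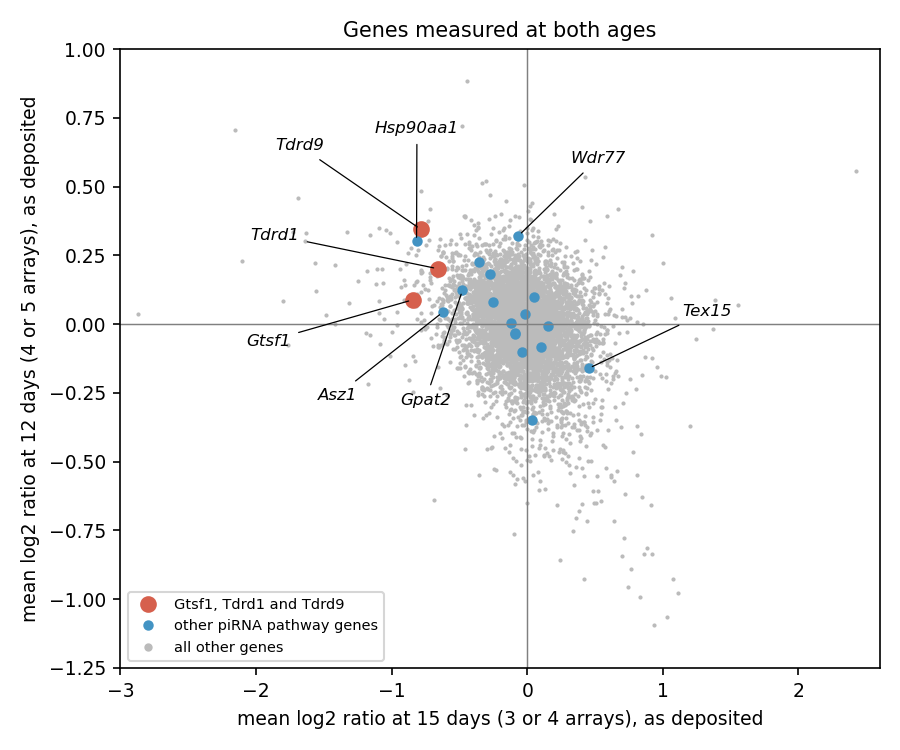
Mean log2 ratio at 15 days (horizontal axis) against that at 12 days (vertical axis), both as deposited, for 6144 genes tested at both ages; each point is a gene. Gtsf1, Tdrd1 and Tdrd9 lie left of 0 at -0.845, -0.66 and -0.785 and above 0 on the vertical axis, near Hsp90aa1, while Tex15 lies to the right of 0.

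The rest of the pathway was mixed at 15 days. Of 36 further piRNA genes listed, 20 were on the arrays, and 3 of these passed below 0 and none above 0, with a list median of -0.08 against 0.02 over all features and -0.02 over all genes. Among all genes tested 7.20% passed below 0 and 4.04% above. The 3 were Hsp90aa1, Asz1 and Gpat2, all in the group of biogenesis factors, of which 7 were measured.

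Hsp90aa1 encodes a cytosolic HSP90 chaperone that mouse germ cells need for normal piRNA production, and it serves many other proteins as well. It had -0.80, -1.13, -0.86 and -0.47 on replicates 1 to 4 (mean -0.82 ± 0.27, SD, n = 4, limma adjusted p = 0.0059), close to the values of Gtsf1 and Tdrd9. Asz1, a scaffold of germ granules at mitochondria, had -0.37, -0.26, -1.05 and -0.81 (mean -0.62 ± 0.37, SD, n = 4, limma adjusted p = 0.026). It was lowest on replicates 3 and 4, unlike Tdrd1 and Tdrd9, which were lowest on replicate 2. Gpat2, a mitochondrial outer membrane protein with a part in piRNA production, had -0.34, -0.50, -0.69 and -0.38 (mean -0.48 ± 0.16, SD, n = 4, limma adjusted p = 0.024). Only Hsp90aa1 of the 3 passed with each array left out in turn. Asz1 did not pass without replicate 3 or 4, nor Gpat2 without replicate 2 or 3. In 1 model of both ages with a dye term, all 3 and Prmt5 passed under the Cy5 over Cy3 reading, and none of the 4 with the 15-day sign turned.

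The other biogenesis factors did not pass in the fit of the 15-day arrays. Prmt5, whose enzyme methylates the arginines that Tudor domains bind, had a mean of -0.355 ± 0.25 (SD, n = 4, limma adjusted p = 0.077), while its cofactor Wdr77 was at -0.065 ± 0.25 (SD, n = 4). The helicase gene Mov10l1, which acts on piRNA precursors, was at 0.05 ± 0.20, and Pld6, which encodes the mitochondrial nuclease of the pathway, at -0.015 ± 0.095 (SD, n = 4 for each). Both were thus near 0 on average. Of the other Tudor genes 0 of 5 passed: Rnf17 lay at -0.27 ± 0.30, Tdrd5 at -0.25 ± 0.09, Tdrkh at -0.09 ± 0.19 and Tdrd3 at -0.04 ± 0.19 (SD, n = 4 for each), and Tdrd7 at 0.17 ± 0.38 with 3 values. Their lowest mean, that of Rnf17, was nearer 0 than those of Tdrd1 and Tdrd9. As Tdrd1 and Tdrd9 had been picked for low 15-day values and these genes had not, that order is a description only. The single PIWI gene on the arrays, Piwil2, averaged -0.09 ± 0.15 (SD, n = 4) over 3 probes that differed from each other. Mybl1, which encodes the transcription factor of the pachytene piRNA genes, was at -0.12 ± 0.06 (SD, n = 4, limma adjusted p = 0.43).

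Genes of the nuclear arm, through which piRNAs direct DNA methylation to transposons in fetal germ cells, had a median of 0.13, and 0 of 6 passed. Tex15 had 1.03, 0.54, 0.31 and -0.07 (mean 0.45 ± 0.46, SD, n = 4, limma adjusted p = 0.091). Dnmt3l, the cofactor of the de novo methyltransferases, was at 0.395 ± 0.76, Dnmt3b at 0.15 ± 0.18, Dnmt3a at 0.10 ± 0.22, Morc1 at 0.04 ± 0.26 and Uhrf1 at -0.23 ± 0.20 (SD, n = 4 for each). Uhrf1 was the only 1 of the 6 with all 4 values below 0, and Dnmt3l spread the most, from -0.50 to 1.31. At 12 days 0 of the 17 other pathway genes tested passed, with 0 at an unadjusted p under 0.05, and their median knockout coefficient was -0.01, and so was that of all features. As deposited, Prmt5 (0.23 ± 0.09), Wdr77 (0.32 ± 0.12) and Rnf17 (0.18 ± 0.11) were above 0 on all 5 arrays of 12 days (SD, n = 5 each). So were 6.38% of all features with 5 values, and limma called 0 of 10075 features on that reading.

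**Figure D3:**
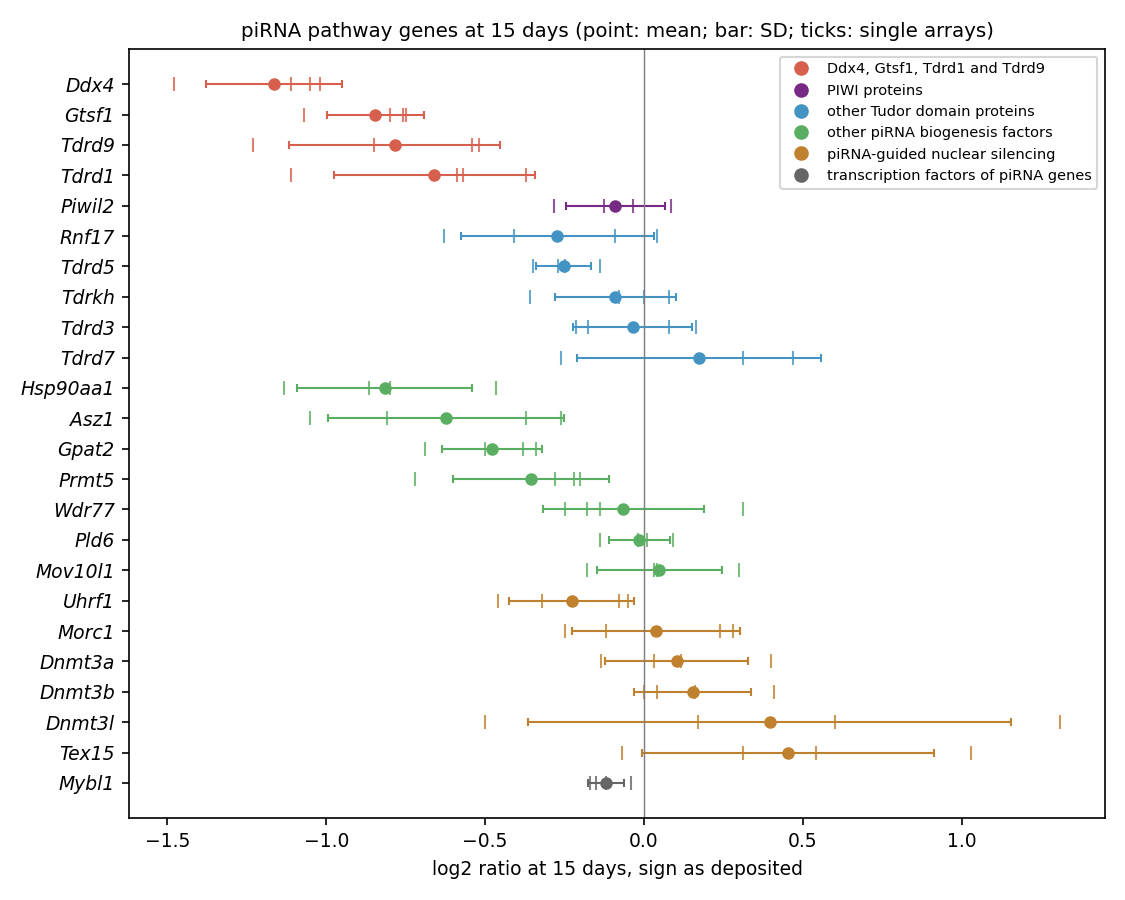
Log2 ratio at 15 days, as deposited, of 24 piRNA pathway genes in 6 groups; points are means, bars the SD and ticks single arrays (4, or 3 for Tdrd7). Ddx4, Gtsf1, Tdrd9 and Tdrd1, at the top, range from -1.17 to -0.66, and Hsp90aa1, Asz1 and Gpat2 lie below 0 as well, while most other genes have bars that reach 0.

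The arrays held RNA of the whole testis, in which fewer cells of a type and less RNA per cell cannot be told apart. Of 6 pachytene spermatocyte markers 4 passed below 0 at 15 days (Slc2a3, Rsph1, Lyar and Ccnb1ip1) and none above, with a median of -1.07 and gene means from -2.16 to 0.23. Over all genes tested, 7.20% passed below 0 and 4.04% above. The list medians on the 4 arrays ran from -1.26 to -0.74, against medians of -1.17 to -0.66 for the 4 piRNA genes. On 12-day replicate 3, where Tdrd1, Tdrd9 and Gtsf1 were highest, the pachytene median was also highest, at 1.16. Elsewhere the lists parted: on 12-day replicate 1 the pachytene median was -0.395 and that of the piRNA genes 0.225, and at 15 days the pachytene median was lowest on replicate 3 and that of the piRNA genes on replicate 2. Of 9 spermatogonial markers 3 passed above 0 and none below (median 0.35), and of 9 Sertoli cell markers none passed (median -0.01). Passing genes numbered 1 of 6 for Leydig cells (above 0), 2 of 8 for peritubular and fibroblast cells (1 each way), 1 of 4 for macrophages (below), 1 of 5 for endothelium and blood (above) and 1 of 1 for spermatids (above). All these marker lists were chosen with earlier results of these data known, so their counts are a description and not a test. The part of any of these cell types in the values of the piRNA genes was not tested.

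**Figure D4:**
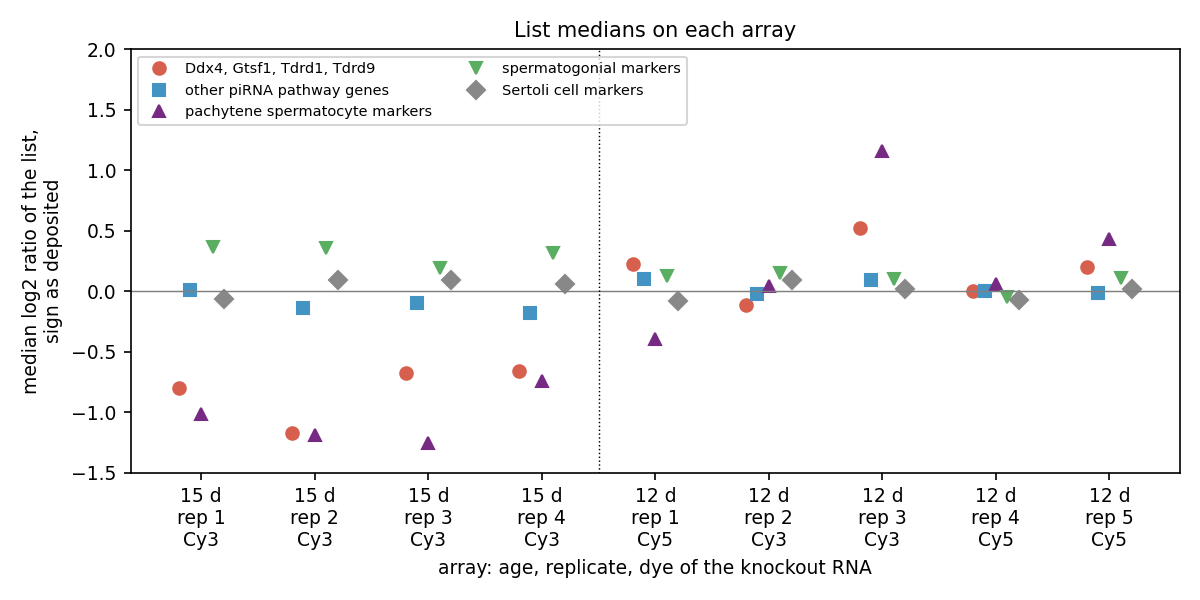
Median log2 ratio, as deposited, of 5 gene lists on each of the 9 arrays, with the dye of the knockout RNA under each. The medians of Ddx4, Gtsf1, Tdrd1 and Tdrd9 and of the pachytene markers lie below 0 on all arrays of 15 days, those of spermatogonial markers above 0, and those of Sertoli cell markers within 0.09 of 0.

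Over the 9 arrays the 4 genes had like profiles, all having been picked for low values at 15 days. Likeness was measured as the cosine of the values of 2 genes over the arrays, which equals 1 for proportional values and which no turning of an array's sign changes. It ran from 0.904 for Gtsf1 and Tdrd9 (9 arrays) to 0.992 for Ddx4 and Gtsf1 (6 arrays). Tdrd1 and Tdrd9 had 0.980 over 8 arrays. Among 5379 other genes with a value on all 9 arrays, the median cosine with the mean of the 4 was 0.103, and 152 exceeded 0.9. The highest were Mrgbp, a subunit of a histone acetyltransferase complex (0.984), Spats2 (0.983), Psip1, a chromatin reader (0.981), Atxn7l3b (0.977) and Dync1li2, a light intermediate chain of cytoplasmic dynein (0.977). Mrgbp had -1.05, -1.37, -1.16 and -0.86 at 15 days, and 0.10, 0.15, 0.68, 0.02 and 0.062 on replicates 1 to 5 at 12 days. Like Gtsf1, it was thus lowest on 15-day replicate 2 and highest on 12-day replicate 3. For single genes the closest were Dync1li2 for Ddx4 (0.990 over 6 arrays), Wdr92 for Gtsf1 (0.982 over 9), Psip1 for Tdrd1 (0.992 over 8) and Rnf7, a RING subunit of cullin ubiquitin ligases, for Tdrd9 (0.995 over 9). Within the pathway, Hsp90aa1 had 0.965 and Gpat2 0.942 with the mean of the 4, and Tex15 -0.756 (9 arrays each).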

How the data were processed

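The deposited values are log ratios, read here as log2, of 9 arrays with 2 channels. Per the series' design text, the authors used a GenePix 4000A scanner and GenePix 3.0 for spot values and flags, then median centring, and SAM with a 1% false discovery limit and a cutoff of 1.5. The text gives no log base, background correction or ratio direction. Genes were named from the platform annotation and updated by Entrez ID (98.9% of single-gene probes matched), and probes of a gene were averaged. limma 3.58.1 in R 4.3.3 (lmFit, eBayes, two-sided, Benjamini-Hochberg over all features) tested the mean at 15 days (at least 3 values), the knockout coefficient with a dye intercept at 12 days (at least 4 values, both orientations) and the age difference in 1 model with a shared dye term. The fits were tested on simulated data. Arrays were replicates as labelled, numbered in order of deposit; whether any shared RNA is not given, and p-values measure the spread between arrays. The named genes were the 4 genes, every listed pathway gene on the arrays, and those of highest cosine. The genes and lists were chosen with earlier results of these data known. No signal over background was given, so spots of weak signal could not be set apart. Precision is also limited by the number of arrays and by the 1 probe of each of the 4 genes.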

Additional observations from a re-analysis of the deposited data

Results flagged for a closer look

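Within the piRNA pathway, 43 groups of 4 or 5 arrays were searched for a sample far from the others, and 2 were found. Chance alone picks out about 5% of groups. Gtsf1 had -1.07 on 15-day replicate 2, against -0.80 to -0.75 on the other 3 arrays. Prmt5 had -0.72 on 15-day replicate 3, against -0.28 to -0.20 on the others.

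As deposited, every 15-day value of Tdrd9 and of Prmt5 lay below 0 and every 12-day value above it. Tdrd9 had been picked for its low 15-day values. All 15-day values lay below all 12-day values in 8.05% of 9851 features. The 15-day mean minus the 12-day mean was -1.13 for Tdrd9 and -0.58 for Prmt5, and this difference of deposited values was not tested. For Hsp90aa1 the ages differed by limma under the Cy5 over Cy3 reading, by 1.25 in knockout over wild-type ratio (adjusted p = 0.024), with 15-day values of -1.13 to -0.47 as deposited, against -0.01 to 0.63 at 12 days. With the 15-day sign turned Hsp90aa1 differed by -0.38 (adjusted p = 0.80), and it did not pass without 15-day replicate 1, 2 or 3 or 12-day replicate 2 or 3 in the first reading.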

How the results depend on the processing

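The 15-day means of Ddx4, Gtsf1, Tdrd1 and Tdrd9 stayed below 0 in every alternative run, as deposited, and moved by less than 1 SD except for Tdrd9 in a joint fit of both ages: -1.145 under the Cy5 over Cy3 reading and -0.425 with the 15-day sign turned. There Tdrd1 was at -0.93 and -0.39, a shift within its SD but of over 1.5 times in the second case. Ddx4 could not be fitted there. With an array left out the 15-day means ran from -1.21 to -1.06 for Ddx4, -0.88 to -0.77 for Gtsf1, -0.76 to -0.51 for Tdrd1 and -0.87 to -0.64 for Tdrd9. The genes had been picked with every 15-day value below 0, so leaving an array out could not turn the sign of these means. At 12 days 0 features and 0 pathway genes passed under every alternative. With an array left out, the coefficient of Gtsf1 turned to 0.064 without replicate 3 (range -0.29 to 0.064), that of Tdrd1 ranged from -0.16 to -0.11 and that of Tdrd9 from -0.12 to -0.02. Tdrd1 could not be fitted without replicate 3. With scaling they were -0.21, -0.27 and -0.17, with quantile normalization -0.19, -0.25 and -0.16, and with no dye intercept -0.09, -0.003 and -0.003. Not turned by the dyes, they were 0.088, 0.20 and 0.345. The age differences of Gtsf1, Tdrd1 and Tdrd9 turned to -0.62, -0.25 and -0.35 with the 15-day sign turned, and to -0.93, -0.86 and -1.13 with all values read as deposited, an alternative chosen after seeing the data. The cause of these changes was not tested.

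Of 1515 features called at 15 days, 242 passed a stricter threshold (adjusted p under 0.01, 1.5-fold). The joint fit, over the features with enough values at both ages, called 763, or 17 with the sign turned. Left-out arrays gave 372 to 1185: 640, 597 and 372 without replicates 1, 2 and 3. The share above 0 was 56.8%, or 46.7% after quantile normalization. The count of the age difference, 246, became 532 with scaling, 807 with quantile normalization, 493 with neighbouring spots subtracted, 4 at the stricter threshold and 0 with the sign turned. It ranged from 5 to 468 with an array left out (26, 35 and 5 without 15-day replicates 1 to 3, and 60, 52, 75 and 468 without 12-day replicates 2 to 5). Its share above 0 was 54.5%, or 64.7% with mean centring. Other pathway genes below 0 at 15 days, 3 in all, became 5 with neighbouring spots subtracted, 1 at the stricter threshold, 0 in the joint fit with the sign turned and 1 to 3 with an array left out. Above 0, 1 passed with neighbouring spots subtracted (Tex15), 1 with single probes (Dnmt3a) and 0 to 1 with an array left out. In the age difference 1 passed, or 3 with scaling, 4 with quantile normalization, 3 with neighbouring spots subtracted, 0 at the stricter threshold, 0 with the sign turned and 0 to 2 with an array left out. The age differences ran from 0.715 to 1.425 for Gtsf1, 0.92 to 1.17 for Tdrd1 and 1.07 to 1.31 for Tdrd9 with an array left out. That of Tdrd1 lacks the run without 12-day replicate 3, its only array of that age with knockout RNA in Cy3. No paired analysis was possible because the labels give no replicate numbers shared by the ages, and each array already sets a knockout against a wild-type sample.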

Other observations

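The 3 probes of Piwil2, the mouse PIWI gene known as Mili, did not move together. At 15 days the first had -0.09, -0.34, 0.92 and 0.76 on replicates 1 to 4, and the second 0.82, 0.28, -0.22 and -0.18. The third had -0.48, -0.79, -1.08 and -0.68, a mean of -0.76 ± 0.25 (SD, n = 4), and passed below 0 when probes were fitted singly (limma adjusted p = 0.0048). The average of the 3 probes, -0.09, therefore describes none of them, and which one follows the Piwil2 transcript was not tested. Dnmt3a had 2 probes, at 0.395 ± 0.19 (limma adjusted p = 0.046) and -0.19 ± 0.33 (SD, n = 4 each).

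The 7 probes of Hsp90aa1 agreed at 15 days, with means of -0.89 to -0.75, all past the threshold when fitted singly. On 12-day replicates 1 to 4 the SD between these probes was 0.045 to 0.10. On 12-day replicate 5 it was 0.43, with values of -0.37 to 0.93. Ddx4, Gtsf1, Tdrd1 and Tdrd9 each rest on 1 spot, so no such spread can be given for them.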
